A study of Mus musculus with 6 samples.

Results

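The genes described here are 9 transcription factors that direct the fates of CD4+ helper T cells: Tbx21, Eomes, Runx1, Runx3, Gata3, Foxp3, Bcl6, Prdm1 and Maf. They were chosen by name, with earlier results of these data known. All 9 were among the 22180 genes measured with a probe set of their own. For the icilin group, splenic CD4+ T cells from female wild-type C57BL/6 mice aged about 8 weeks were given 100 µM icilin for 24 h. Icilin is a synthetic cooling compound known as an agonist of TRPM8 and TRPA1, both ion channels. For the vehicle group, cells of the same kind were kept for those 24 h with the solvent, dimethyl sulfoxide. All cells had first been stimulated for 24 h with antibodies against CD3 and CD28 at 10 µg/mL each, so neither group was resting. There were 3 arrays per group, and the design text names the same 3 mice as the source of icilin and vehicle cells. As no label ties an array to a mouse, p-values measure the spread between arrays. Values are log2 expression, as deposited, from Affymetrix Mouse Gene 2.0 ST arrays.

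A naive CD4+ T cell becomes 1 of several helper types, and each type depends on a factor of its own. T-bet, the product of Tbx21, and the related T-box protein Eomesodermin, the product of Eomes, drive the Th1 programme of interferon gamma production. RUNX3 works with T-bet at Th1 and cytotoxic genes and silences Il4, while RUNX1 serves T cell development and regulatory T cells. GATA3 is the Th2 factor and FOXP3 that of regulatory T cells. BCL6 drives follicular helper cells and is opposed by Blimp-1, the product of Prdm1. c-MAF, the product of Maf, promotes Il4, Il10 and Il21.

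The start-site sequences of the genes whose changes are contrasted are shown first, each covering 250 bases before to 50 bases after an annotated start (RefSeq, GRCm38.p6), written 5′ to 3′ on the gene's own strand. Capitals mark matches, on either strand, to any of 8 kinds of motif. The motifs were AGGTGTGA for T-box proteins, TGTGGT for Runx proteins, AGATAA or else TGATAA for GATA factors, TTCNNNGAA for STAT factors, TGANTCA for AP-1, GGAAAA for NFAT, ACGTG for the hypoxia response and TGATGNAA for ATF4. Tbx21 and Eomes are the Th1 pair, and the distal starts of Runx3 and Runx1 are set beside each other because these related genes differed in their change.
Tbx21, chr11:97115282-97115581, minus strand: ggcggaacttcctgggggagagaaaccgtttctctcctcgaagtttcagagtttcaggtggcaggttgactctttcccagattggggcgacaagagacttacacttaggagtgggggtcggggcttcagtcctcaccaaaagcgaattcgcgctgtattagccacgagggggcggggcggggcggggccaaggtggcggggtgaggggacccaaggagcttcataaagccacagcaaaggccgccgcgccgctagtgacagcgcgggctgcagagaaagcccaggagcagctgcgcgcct
Eomes, chr9:118477939-118478238, plus strand: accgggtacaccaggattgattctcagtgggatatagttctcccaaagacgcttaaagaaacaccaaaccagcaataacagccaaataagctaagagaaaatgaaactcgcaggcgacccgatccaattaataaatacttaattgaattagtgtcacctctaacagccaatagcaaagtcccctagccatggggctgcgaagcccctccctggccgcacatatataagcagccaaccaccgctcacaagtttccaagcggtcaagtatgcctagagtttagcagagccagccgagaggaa
Runx3 distal start, chr4:135120395-135120694, plus strand: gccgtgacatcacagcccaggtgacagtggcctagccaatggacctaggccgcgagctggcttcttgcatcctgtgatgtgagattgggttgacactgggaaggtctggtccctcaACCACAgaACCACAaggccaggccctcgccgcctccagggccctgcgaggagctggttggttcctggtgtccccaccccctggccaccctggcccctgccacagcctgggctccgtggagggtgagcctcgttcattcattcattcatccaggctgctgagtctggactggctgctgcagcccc
Runx1 distal start, chr16:92826025-92826324, minus strand: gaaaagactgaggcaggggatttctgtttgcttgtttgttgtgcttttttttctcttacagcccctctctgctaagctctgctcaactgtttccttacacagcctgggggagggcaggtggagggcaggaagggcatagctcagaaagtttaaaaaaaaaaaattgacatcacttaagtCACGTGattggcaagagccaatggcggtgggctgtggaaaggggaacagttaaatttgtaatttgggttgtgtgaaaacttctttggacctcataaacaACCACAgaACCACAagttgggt

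Neither the Tbx21 nor the Eomes window held any of these motifs, which says only that the letters are not in these 300 bases. Both Runx windows held a pair of Runx motifs, read on the opposite strand as ACCACA, beginning at bases -134 and -126 in Runx3 and at 29 and 37 in Runx1, counted from the start site. The pair is 14 bases long in both, ACCACAGAACCACA, and this exact run occurred in 4 of 32817 windows of the RefSeq table (0.0122%), which belong to Runx1, Runx2, Runx3 and Gm16225. It was picked out after the sequences were seen. A single Runx motif is common, present in 16.8% of all windows. Of the 12 windows held for 8 of the factor genes, 3 had the STAT motif (8.29% of all windows), 2 of Bcl6 and 1 of Foxp3. A pair of overlapping ACGTG matches, reading CACGTG, stood in the Runx1 window, and ACGTG was found in 19.6% of all windows. The other motifs were found in 1.27% (T-box), 18.6% (GATA), 7.81% (AP-1), 23.3% (NFAT) and 3.97% (ATF4) of all windows. The arrays give 1 value per probe set, so transcripts from the distal and proximal starts of Runx3 and Runx1 are not separated.

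The cells carried the markers of their label. On all 6 arrays Cd4 lay between 11.01 and 11.09 and Cd3e between 11.52 and 11.74, above 99.3% and 99.7% of genes in brightness, and their differences were 0.03 ± 0.06 and -0.07 ± 0.07 (SE). All 11 measured CD4 T cell markers were brighter than the median gene. Markers of other cells were mostly dim, with 2 of 12 for CD8 T and natural killer cells, 4 of 11 for B cells, 1 of 18 for myeloid and dendritic cells and 1 of 11 for innate lymphoid and mast cells brighter than the median gene. In such bulk samples fewer cells of a type and less RNA per cell cannot be told apart. Across all genes the median log2 fold change was 0.01, and 311 genes (1.4%) were called, that is, met both limits named in the study's design text, 1.5-fold and an adjusted p (limma) below 0.1. Of the CD4 markers limma and SAM called 0, 2 of 11 had an unadjusted p under 0.05 (17.1% of all genes), and the smallest p was that of the kinase gene Zap70 (-0.33 ± 0.06, limma adjusted p = 0.0403, and 0.0663 to 0.140 with single arrays left out, above 0.1 unless vehicle replicate 1 was the one omitted).

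The Th1 pair was higher with icilin. Eomes read 4.97, 4.96 and 4.91 on the icilin arrays, against 4.18, 4.30 and 4.35 on the vehicle arrays. The groups did not overlap, and the icilin arrays lay closer together than the vehicle arrays. The mean was 4.95 ± 0.03 with icilin and 4.28 ± 0.09 with vehicle (SD, n = 3 each), so Eomes rose by 0.67 ± 0.07 on the log2 scale, which is 1.59-fold (SE; limma adjusted p = 0.00424). Eomes lay near the middle of the array in brightness (above 50.7% of genes). Its vehicle readings were close to the array medians of 4.24 to 4.30, so the size of its change is less certain. Its change was larger than that of 99.7% of genes.

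Tbx21 read 9.10, 9.02 and 9.09 on the icilin arrays, against 8.52, 8.60 and 8.69 on the vehicle arrays. Again every icilin array was above every vehicle array. The means were 9.07 ± 0.04 with icilin and 8.60 ± 0.09 with vehicle (SD, n = 3 each). The log2 difference was 0.47 ± 0.07 (SE, 95% interval 0.30 to 0.63), or 1.38-fold, with a limma adjusted p of 0.0191. Tbx21 therefore passed the adjusted p and stayed short of the 1.5-fold limit, a size inside its interval. It was a bright gene, above 91.1% of genes.

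**Figure D1:**
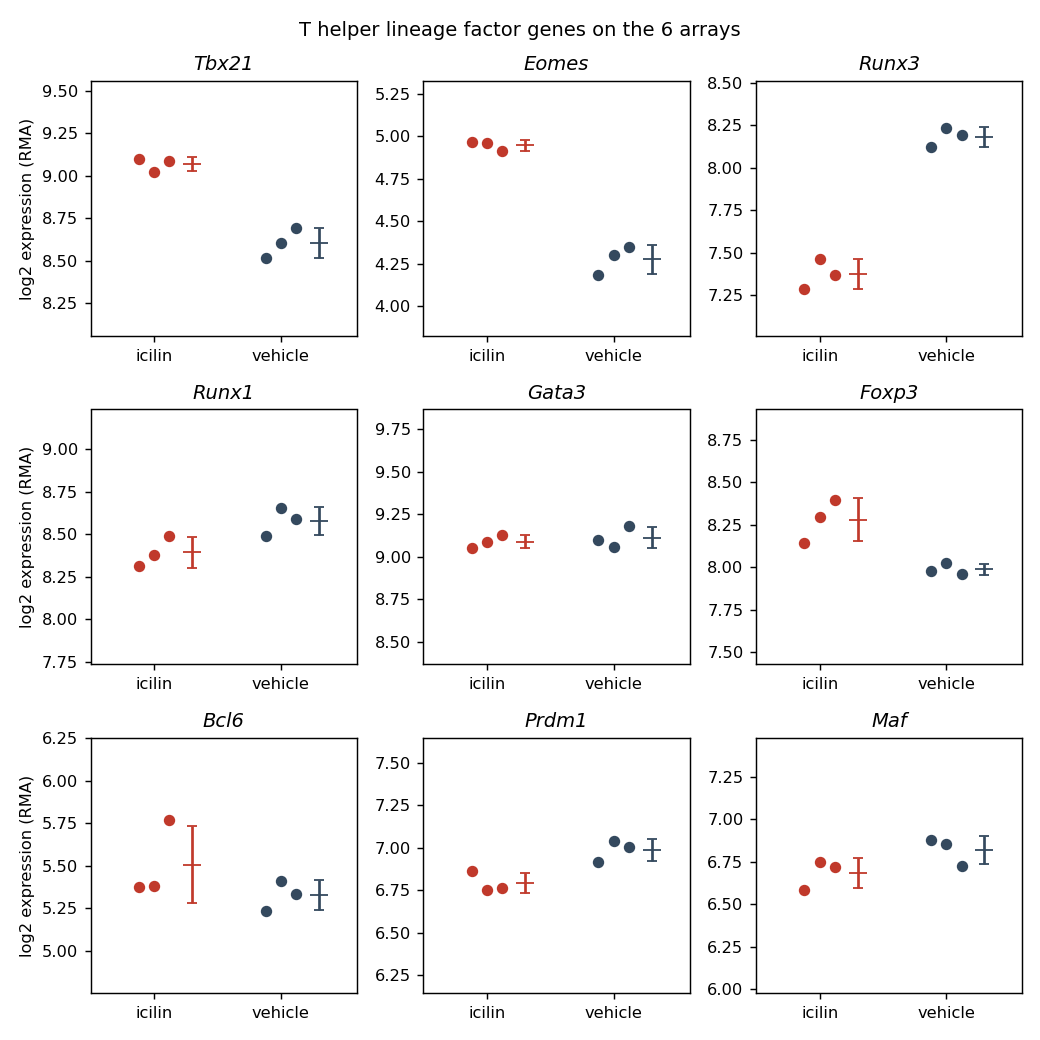
Log2 expression (y axis, RMA units) of the 9 lineage factor genes on the 3 icilin arrays (red, left) and the 3 vehicle arrays (blue, right), with the mean and SD beside each group; every panel spans 1.5 log2 units. Tbx21, Eomes and Foxp3 have all icilin arrays above all vehicle arrays, Runx3 and Prdm1 have them all below, and the groups overlap in the other 4 genes.

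Runx3 moved the other way. It read 7.29, 7.46 and 7.37 on the icilin arrays, against 8.12, 8.24 and 8.19 on the vehicle arrays. The gap between the groups was several times the range within either group. Runx3 fell to 7.37 ± 0.09 with icilin, against 8.18 ± 0.06 with vehicle (SD, n = 3 each). The log2 fold change was -0.81 ± 0.07, or 1.75-fold lower (SE; limma adjusted p = 0.00277), below that of all but 0.537% of genes. Its relative Runx1 read 8.31, 8.38 and 8.49 on the icilin arrays, against 8.49, 8.66 and 8.59 on the vehicle arrays. The highest icilin array and the lowest vehicle array of Runx1 were level, and the Runx1 log2 fold change of -0.18 ± 0.08 had a limma adjusted p of 0.293 (95% interval -0.37 to 0.00035). With an intensity trend and robust variances that adjusted p was 0.0950. Cbfb, which encodes the partner subunit of all RUNX proteins, had a difference of 0.19 ± 0.06 (limma adjusted p = 0.179). Its icilin arrays were all above its vehicle arrays. In the other settings that kept all 6 arrays its adjusted p, by limma or SAM, ran from 0.0187 to 0.346. Zbtb7b, which encodes the CD4 lineage factor ThPOK that RUNX3 represses in CD8 T cells, had one of 0.07 ± 0.08 (limma adjusted p = 0.682).

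Setting the genes against each other within an array removes what an array shares across genes. Each gene was expressed relative to its own vehicle mean, and the difference between 2 genes was taken on every array. Eomes minus Runx3 was 1.59, 1.41 and 1.45 on the icilin arrays, and -0.03, -0.03 and 0.06 on the vehicle arrays. Tbx21 minus Runx3 was 1.39, 1.14 and 1.29 on the icilin arrays, and -0.03, -0.05 and 0.08 on the vehicle arrays. Relative to Runx3, Eomes was thus 2.79-fold and Tbx21 2.42-fold higher with icilin. Because Runx3 moved the opposite way, these differences necessarily exceed each gene's own change. Runx1 minus Runx3 averaged 0.63 ± 0.10 with icilin and 0.00 ± 0.03 with vehicle (SD, n = 3 each). Within the Th1 pair, Eomes minus Tbx21 lay between 0.15 and 0.27 on the icilin arrays and between -0.02 and 0.03 on the vehicle arrays, a small gap beside that to Runx3. Over the 6 remaining factors the mean change was -0.01, the mean of the Th1 pair 0.57, and the difference between the 2 averaged 0.58 ± 0.10 with icilin and 0.00 ± 0.07 with vehicle (SD, n = 3 each). These differences are descriptions without a test, since the genes were chosen with earlier results known.

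**Figure D2:**
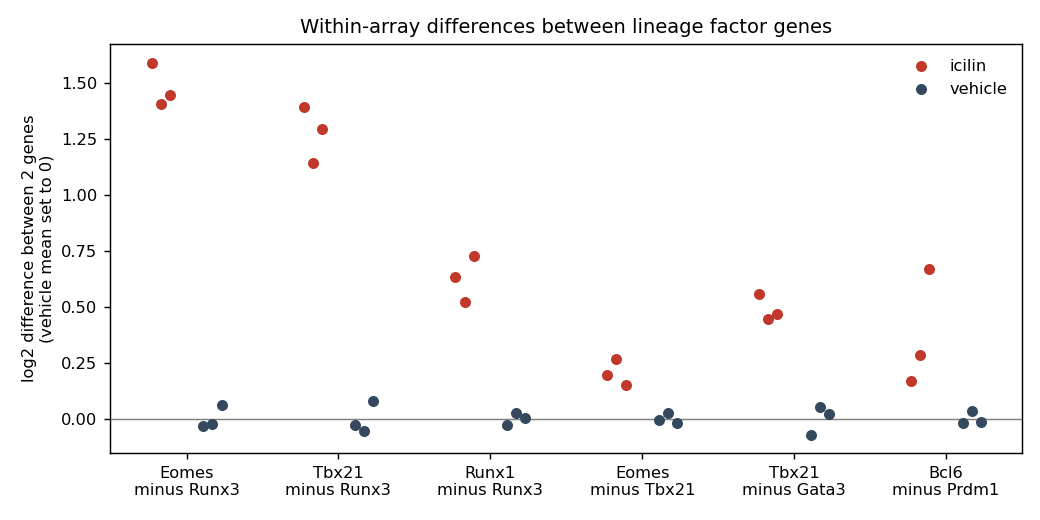
Difference in log2 expression between 2 lineage factor genes on each array (y axis, log2 units, vehicle mean set to 0) for 6 gene pairs, with icilin arrays in red on the left and vehicle arrays in blue on the right of each pair. Eomes minus Runx3 is between 1.41 and 1.59 on the icilin arrays and between -0.03 and 0.06 on the vehicle arrays; Eomes minus Tbx21 stays at or under 0.27.

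None of the factors of the other helper lineages, Gata3, Foxp3, Bcl6, Prdm1 and Maf, passed the adjusted p in the main limma fit over all genes. Gata3 read 9.05, 9.08 and 9.13 on the icilin arrays, against 9.10, 9.06 and 9.18 on the vehicle arrays. The groups were interleaved, and the difference was -0.02 ± 0.07 (95% interval -0.18 to 0.13, adjusted p = 0.892). Tbx21 minus Gata3, the balance of the opposed Th1 and Th2 factors, was 0.49 ± 0.06 with icilin and 0.00 ± 0.06 with vehicle (SD, n = 3 each). The interval for Gata3 lay within 1.5-fold on both sides.

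Foxp3 read 8.15, 8.30 and 8.40 on the icilin arrays, against 7.98, 8.03 and 7.96 on the vehicle arrays. All icilin arrays were above all vehicle arrays, and the icilin arrays were the more spread, with an SD of 0.13 with icilin and 0.03 with vehicle (n = 3 each). The Foxp3 log2 fold change of 0.29 ± 0.08 (95% interval 0.10 to 0.48) had a limma adjusted p of 0.126. The adjusted p was 0.0159 with an intensity trend and robust variances, 0.0321 with dim genes left out and 0.0977 with arrays centred on their median, and the change stayed short of 1.5-fold in each.

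Bcl6 read 5.37, 5.38 and 5.77 on the icilin arrays, against 5.24, 5.41 and 5.33 on the vehicle arrays. One icilin array, replicate 3, stood above the other 5, and without it the difference of 0.18 ± 0.12 became 0.05 (limma adjusted p = 0.513 with it and 0.841 without it). Its opponent Prdm1 read 6.86, 6.75 and 6.76 on the icilin arrays, against 6.91, 7.04 and 7.00 on the vehicle arrays. The groups of Prdm1 were separate by a narrow margin. The Prdm1 log2 fold change was -0.19 ± 0.07 (limma adjusted p = 0.217, and 0.0636 with dim genes left out). Bcl6 minus Prdm1 was 0.17, 0.28 and 0.67 on the icilin arrays, and -0.02, 0.03 and -0.01 on the vehicle arrays. Maf read 6.58, 6.75 and 6.72 on the icilin arrays, against 6.88, 6.85 and 6.73 on the vehicle arrays, which overlap (difference -0.14 ± 0.08, limma adjusted p = 0.433).

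Over the 9 genes, 1 was called higher (Eomes) and 1 lower (Runx3), against 1.4% of all genes called. The genes were chosen with earlier results of these data known, so counts over them are no independent evidence. Without the fold limit 3 of 9 passed the adjusted p, Tbx21 being the third, against 5.28% of all genes: 2 higher (2.27% of all genes) and 1 lower (3.0%). That count was 5 with an intensity trend and robust variances, where Foxp3 and Runx1 joined, and 5 with dim genes left out, where Foxp3 and Prdm1 joined. It was 4 with arrays centred on their median, where Foxp3 joined. Arrays of the groups did not overlap for 5 of 9 genes, 3 higher and 2 lower, against 24.1% of all genes (13.6% higher and 10.5% lower). The median of the 9 log2 fold changes was -0.02, with 4 above 0 and 5 below, so the genes did not shift together. Their median absolute change was 0.193, against 0.102 over all genes. All 9 were brighter than the median gene, with standard errors between 0.07 and 0.12.

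Additional probe sets of the factor genes were dimmer than the main ones, and none passed the adjusted p. A second Gata3 probe set differed by -0.10 ± 0.12 and a second Maf probe set by -0.06 ± 0.15 in a limma fit over all 41345 probe sets (adjusted p = 0.820 and 0.913). The other 7 genes had 1 probe set each with their symbol alone. A probe set annotated to Ccdc22, Foxp3 and Ppp1r3f together had a difference of -0.01 ± 0.09, which cannot be given to 1 gene. A probe set shared by Gata3 with the transcripts 9230102O04Rik and 4930412O13Rik read 3.32, 3.22 and 3.42 on the icilin arrays, against 3.80, 3.45 and 3.76 on the vehicle arrays. It was very dim. Its difference of -0.35 ± 0.12 was larger than that of the main Gata3 probe set, its interval left out 0 (unadjusted p = 0.0237), and it did not pass the adjusted p (0.327 by limma).

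**Figure D3:**
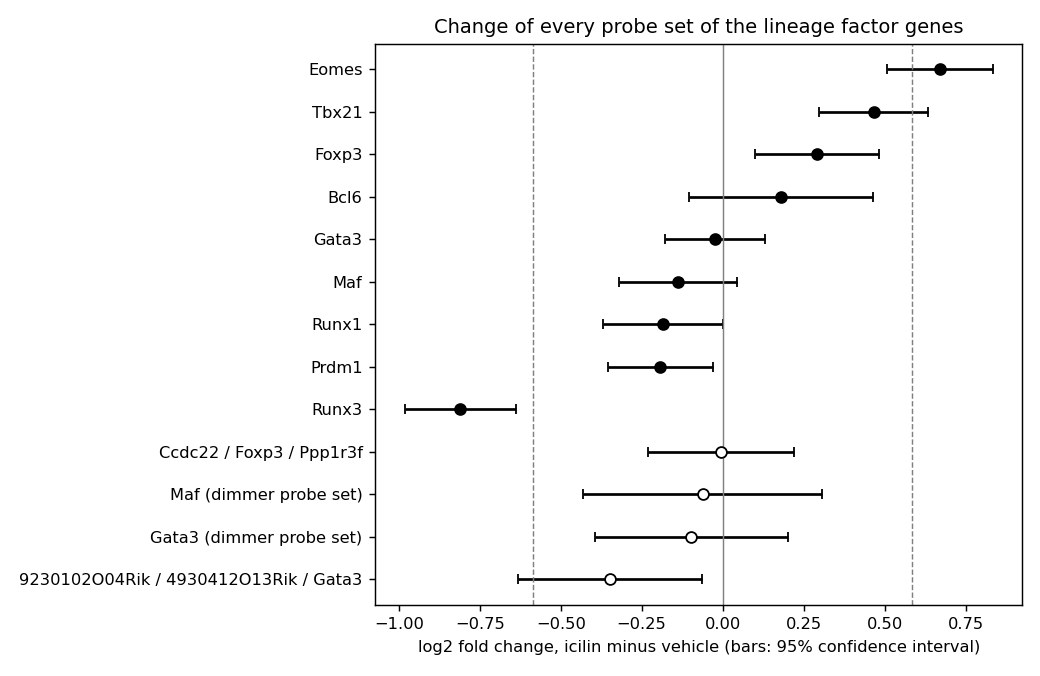
Log2 fold change of each probe set (x axis, icilin minus vehicle) with its 95% confidence interval, for the brightest probe set of the 9 factor genes (filled, fit over genes) and 4 further probe sets (open, fit over all probe sets); dashed lines mark 1.5-fold. Among filled points the intervals of Eomes, Tbx21, Foxp3, Prdm1 and Runx3 leave out 0, as does that of the open point shared by Gata3 and other transcripts (-0.63 to -0.06); only that of Runx3 (-0.98 to -0.64) lies wholly beyond 1.5-fold.

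Signals that act through these factors, their target genes and their relatives were read on 11 lists. Among 11 measured genes of the signals that induce Th1 cells, 0 were called by limma and 0 by SAM, while the median was -0.03 and 2 genes reached an unadjusted p under 0.05, against 17.1% of all genes. The kinase gene Jak2, which serves the interleukin 12 receptor, had the smallest p (-0.37 ± 0.06, adjusted p = 0.0228). Stat4, the transducer of interleukin 12, stood at -0.30 (adjusted p = 0.0767). The other STAT genes read on the lists that passed the adjusted p were lower as well, all short of 1.5-fold: Stat5a (-0.50), Stat3 (-0.41) and Stat5b (-0.35). With single arrays left out the adjusted p ran from 0.0982 to 0.219 for Stat4, above 0.1 in all but 1 case, and from 0.0697 to 0.118 for Stat5b, while Stat3, Stat5a and Jak2 stayed under 0.1.

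Of 13 Th1 targets, 1 was called higher and 0 lower. Cxcr3, a chemokine receptor gene activated by T-bet, averaged 6.94 with icilin and 6.16 with vehicle (0.79 ± 0.07, limma adjusted p = 0.00277). Without the fold limit 1 also passed lower (3.0% of all genes), the cytokine gene Lta (-0.48 ± 0.07, limma adjusted p = 0.0148). An unadjusted p under 0.05 was found for 6 of the 13 (17.1% of all genes). Cxcr3 and Cd226 (0.20) were higher, and Ifng, Fasl (-0.26), Lta and Tnf (-0.17) lower. Ifng, the signature Th1 cytokine gene, had a difference of -0.33 ± 0.11 (limma adjusted p = 0.179), and the list median was -0.06. In the other settings that kept all 6 arrays the adjusted p of Ifng, by limma or SAM, ran from 0.0598 to 0.340. Of 18 cytotoxic genes, a class that RUNX3 and the T-box factors are known to act on, 0 rose and 7 fell, with a median of -0.20. Shares of 0.37% of all genes were called higher and 1.03% lower. The granzyme genes Gzma (-1.46 ± 0.08), Gzmb (-0.76 ± 0.06) and Gzmc (-0.69 ± 0.12) fell, as did the pore-forming perforin gene Prf1 (-0.68 ± 0.10). So did the granule protein gene Nkg7 (-0.85 ± 0.08), the receptor gene Crtam (-0.92 ± 0.16) and the protease gene Ctsw (-0.59 ± 0.08). On the icilin arrays Gzma (3.67 to 3.90) and Gzmc (3.38 to 3.59) read below the array medians of 4.24 to 4.30, so the size of their changes is less certain. Neither gene entered the fit with dim genes left out, where the other 5 of the 7 were called. Runx3 was lower with these genes, while Eomes and Tbx21 were higher. A link between the factors and the cytotoxic genes was not tested. Several of the granule genes were known to be lower from earlier results on these arrays, so their count is no independent evidence. Crtam missed the adjusted p (0.107 to 0.116 by limma) when replicate 1 or 2 of icilin, or 2 or 3 of vehicle, was left out. Gzmc missed it (0.111 to 0.115) with icilin 1, icilin 2 or vehicle 2 left out. Ctsw, close to the fold limit, fell short of it without the second icilin array (-0.54) or the second vehicle array (-0.53), and with arrays centred on their median (-0.56).

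Genes of CD8 T and natural killer cells, which also use Eomes and Runx3, were read beside these changes. Of 12 such markers 0 were called by limma and 0 by SAM, 3 had an unadjusted p under 0.05 (17.1% of all genes), and the list median was -0.0025. Their summed linear level was 291 to 319 on the icilin arrays and 275 to 293 on the vehicle arrays, which overlap. Cd8a was dim, with a difference of 0.01 ± 0.16, and Ncr1 stood at -0.08 ± 0.08. Cd8b1, the brightest of the list and chosen after its values were seen, read 7.08, 6.63 and 6.88 on the icilin arrays. It read 6.51, 6.55 and 6.35 on the vehicle arrays (0.39 ± 0.12, limma adjusted p = 0.167). In the other settings that kept all 6 arrays its adjusted p, by limma or SAM, ran from 0.0398 to 0.324. Klrd1 had the smallest p of the list (-0.27 ± 0.06, limma adjusted p = 0.0843, and 0.152 to 0.235 with any single array left out). The natural killer cell marker Klrb1c had the largest change (-0.52 ± 0.15, limma adjusted p = 0.135), with all icilin arrays below all vehicle arrays. It was very dim, above 20.4% of genes. The part of CD8 T or natural killer cells in the changes of Eomes and Runx3 was not tested. B cells, which use Bcl6, had 1 of 11 markers called by limma, against 1.4% of all genes. That marker, Ms4a1, rose (1.01 ± 0.10, limma adjusted p = 0.00339). Its vehicle readings of 4.26, 3.99 and 3.96 were near or below the array medians of 4.24 to 4.30, so the size of its change is less certain. The brightest markers of the list, Cd79a and Cd79b, stood at 0.09 ± 0.07 and -0.01 ± 0.12 (limma adjusted p = 0.599 and 0.986). B cell markers that limma did not call had differences in both directions. The B cell factor gene Ebf1 read 3.61, 3.86 and 4.09 on the icilin arrays, against 4.17, 4.68 and 4.92 on the vehicle arrays (-0.73 ± 0.20, limma adjusted p = 0.128), and Spib stood at 0.58 ± 0.16 (limma adjusted p = 0.131). SAM called 2 of the 11, Ms4a1 and, lower, Ebf1. Ebf1 was called under 4 of the 17 alternatives, SAM among them. With single arrays left out its limma adjusted p ran from 0.0559 to 0.294. The summed level of the list, Ms4a1 and Spib included, was 269 to 278 on the icilin arrays and 241 to 255 on the vehicle arrays. Its part in the Bcl6 values was not tested. Of 18 myeloid markers 1 rose, Mpeg1 (0.75 ± 0.16, limma adjusted p = 0.0581), against 0.37% of all genes called higher. Summed levels of the myeloid list were 273 to 291 on icilin and 284 to 300 on vehicle arrays. Leaving out replicate 1 or 3 of either group ended the Mpeg1 call (0.63 to 0.76, adjusted p 0.152 to 0.163), and this dim gene did not enter the fit with dim genes left out. Of 11 innate lymphoid and mast cell markers limma and SAM called 0, 2 had an unadjusted p under 0.05 (17.1% of all genes), and Gata2 had the smallest p (-0.24, adjusted p = 0.152). Their summed level was 140 to 160 on the icilin and 144 to 148 on the vehicle arrays.

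Of 14 genes of Th2 induction and function, 2 fell, against 1.03% of all genes called lower. They were the cytokine genes Il24 (-1.61 ± 0.10) and Il5 (-0.59 ± 0.12, limma adjusted p = 0.0513). The Il5 call ended without any single array other than icilin replicate 2 (-0.63 to -0.49, adjusted p 0.125 to 0.162), and it missed the fold limit after median centring (-0.57) and quantile normalization (-0.56). Il4 and Il13, the cytokines named with Gata3, stood at 0.04 and -0.28 (limma adjusted p = 0.858 and 0.123). Of 17 regulatory T cell genes, the inhibitory receptor gene Ctla4 fell (-0.69 ± 0.06, limma adjusted p = 0.00277). Without the fold limit, 5 of the 17 passed lower (3.0% of all genes) and 1 higher (2.27% of all genes), while the sign of Foxp3 itself was positive. Lower were Ctla4, Capg (-0.56), Ikzf4 (-0.47), Tnfrsf18 (-0.38) and Tnfrsf4 (-0.30), and Gpr83 was higher (0.44). The list ran from -0.69 to 0.44, with a median of -0.16 and 13 of the 17 genes below 0. Il2ra, the interleukin 2 receptor gene, and Ikzf2, the Helios gene of regulatory T cells, stood at -0.04 each. Both were added after their values were seen, and Il2ra was brighter than 99.8% of genes in these stimulated cells.

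Of 18 follicular helper genes and of 16 Th17 genes, limma and SAM called 0 each, and the median of both lists was -0.13. An unadjusted p under 0.05 was found for 10 and 8 of them, against 17.1% of all genes. The smallest p values belonged to the adhesion receptor gene Slamf6 (0.56 ± 0.07, adjusted p = 0.0115, or 0.25 and 0.305 as the mean of its probe sets) and the AP-1 family gene Batf (-0.49 ± 0.06, adjusted p = 0.00737). Cxcr5, the homing receptor of follicular helper cells, stood at -0.08 and the Th17 factor gene Rora at -0.30 (limma adjusted p = 0.600 and 0.214). The dioxin receptor gene Ahr, used by Th17 cells, was higher by 0.41 (limma adjusted p = 0.0192). Of 14 targets of Blimp-1 and c-MAF, the interleukin 7 receptor gene Il7r rose (0.72 ± 0.07) and Ctla4 fell, and Il10 stood at -0.17 (limma adjusted p = 0.338). Over all genes, 0.37% were called higher and 1.03% lower.

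Relatives and partners of the factors were read against the 1.4% of all genes called. Among 29 T-box, Runx, Gata and Fox family genes and partners, 1 was called, Lmo4: this adaptor gene, whose product binds transcription factors, averaged 7.43 with icilin and 6.68 with vehicle (0.75 ± 0.08, limma adjusted p = 0.00383). The list median was 0.01, and that of all genes 0.01. Among 23 relatives of Bcl6, Blimp-1 and Maf, 1 was called: Zbtb32, a repressor induced in activated lymphocytes, fell (-0.63 ± 0.06, limma adjusted p = 0.00339). Of 21 other fate factors, 2 were called. The Ikaros family gene Ikzf3 rose (0.85 ± 0.07, limma adjusted p = 0.00146). Bhlhe40, which supports cytokine production by helper cells, fell (-0.60 ± 0.06, limma adjusted p = 0.00484). Its call ended with arrays centred on their median (-0.58) or without vehicle replicate 3 (-0.56), where the fold was below 1.5.

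**Figure D4:**
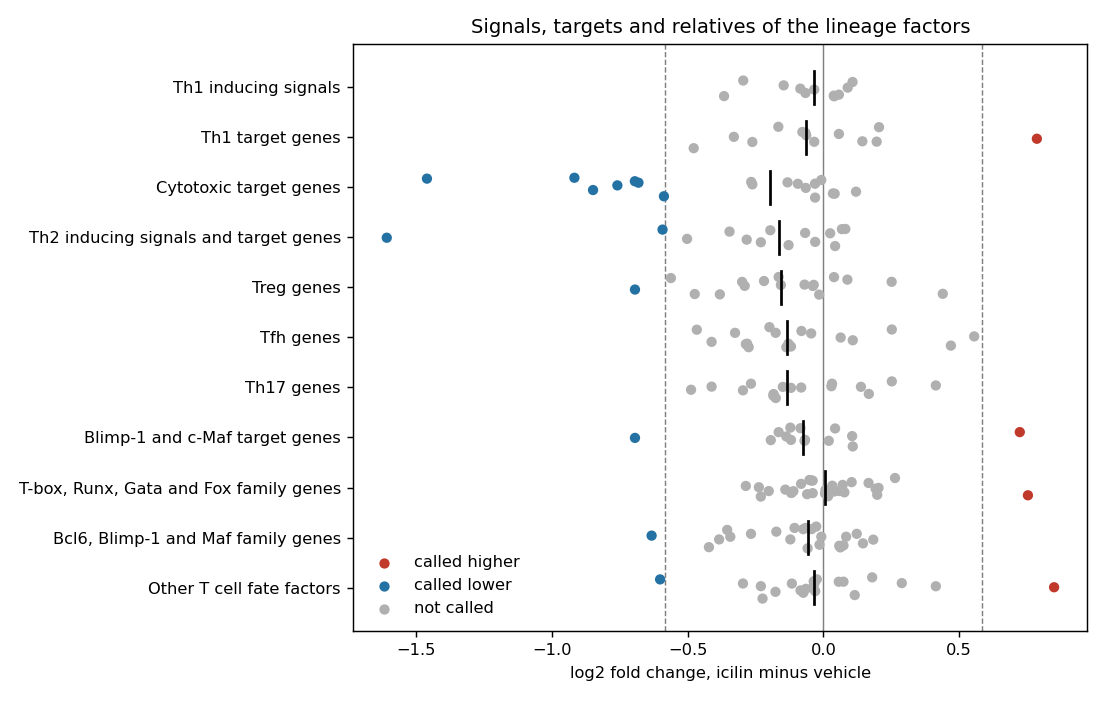
Log2 fold change (x axis, icilin minus vehicle) of each measured gene on 11 lists of signals, targets and relatives of the lineage factors; red points were called higher, blue points lower, grey points not called, black bars mark list medians and dashed lines 1.5-fold. Blue points gather in the cytotoxic list, where 7 of 18 genes fell, and red points are single genes on 4 lists.

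The genes whose pattern over the 6 arrays was most like that of the changed factors were looked up among 10283 genes brighter than the median, leaving out segments of antigen receptors, pheromone and odorant receptors, small RNAs and predicted genes. Closest to Eomes were the kinase gene Wee1, Nkiras1 and Gpm6b (Pearson's r between 0.998 and 1.00, n = 6 arrays). Closest to Tbx21 were Urb1, Scyl3 and Ankrd28 (r between 0.998 and 0.999). Closest to Runx3 were the histone demethylase gene Kdm5b, Plek and the glucose transporter gene Slc2a3 (r between 0.997 and 0.998), of which Plek (-0.92) and Slc2a3 (-1.03) were also called lower. All these values share the difference between the groups, and r exceeded 0.95 for 300 genes with Eomes, 277 with Tbx21 and 365 with Runx3. They describe these 6 arrays.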

How the data were processed

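Total RNA from each sample, 0.25 µg with an integrity number of at least 8, was hybridised to 1 array. Per the labels and design text, the authors processed the scans with RMA, and the deposited values are log2. Only these 6 columns were used, and array medians were 4.24 to 4.30. Since RMA equalises the arrays, a shift shared by most genes is removed.

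The array annotation gave 1 symbol to 23521 of 41345 probe sets, several to 1814 and none to 16010. The brightest probe set per gene was kept (22180 genes) and fitted in R 4.3.3 by limma 3.58.1 (eBayes with no trend; 4 residual degrees of freedom plus 3.07 from the prior) as a two-sided test of icilin minus vehicle. Benjamini-Hochberg adjustment ran over every gene tested. A permutation of 3 against 3 arrays cannot give a two-sided p under 0.1 for a single gene. The fit was tested on simulated data. The number of arrays limits precision, with a median SE of 0.09.

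The factors, the 16 lists (255 genes, 232 measured, 18 called) and the naming rule were chosen with earlier results of these data known. The rule named every factor, up to 6 called genes per list by size of change or the smallest p where none was called, a few defining markers, and the 3 genes most correlated with Tbx21, Eomes and Runx3. Ctsw, Ifng, Cd8b1, Cbfb, Zbtb7b, Stat3, Stat4, Stat5a, Stat5b, Il4, Il13, Il2ra, Ikzf2, Cxcr5, Rora, Ahr, Il10, Spib and Ebf1 were added after their values were seen. So were Lta, Fasl, Tnf, Cd226, Capg, Ikzf4, Tnfrsf18, Tnfrsf4, Gpr83, Klrb1c, Cd79a and Cd79b. Sequences come from RefSeq (GRCm38.p6), matched by symbol for 8 of 9 factors. Other settings tried were a replicate block, another variance model, 2 other scalings, a filter on dim genes, other treatments of probe sets, SAM (the study's test, rewritten, 20 assignments), other thresholds and leaving out each array. Python 3.11.15 with pandas 2.3.3 and matplotlib 3.10.9 served for summaries and plots.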

Additional observations from a re-analysis of the deposited data

How the results depend on the processing

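Eomes and Runx3 stayed called and kept their direction under all 17 alternatives, and the count of lineage factors called was 2 in each except with no fold limit, where Tbx21 (0.47, adjusted p = 0.0191) joined them as the third. With single arrays left out, the log2 fold change was 0.62 to 0.71 for Eomes, 0.42 to 0.51 for Tbx21 and -0.85 to -0.77 for Runx3, and the count of all genes called was 279 to 328 (311 with all arrays, 1170 with no fold limit). The design text says that both groups came from the same 3 mice, but the labels do not say that a replicate number marks a mouse, and same-numbered arrays did not deviate together (r = -0.022 to -0.0051). With the replicate block 283 genes were called, the adjusted p of Tbx21 was 0.0842, the calls of Gzmc, Il5 and Mpeg1 ended, and Stat4 (0.203), Stat5b (0.120), Jak2 (0.110) and Zap70 (0.134) no longer passed the adjusted p. Fitted over every probe set, Crtam (0.102), Il5 (0.145) and Mpeg1 (0.156) lost their calls. Of 47 genes besides the 9 factors that were followed through the alternatives, 6 lost their call under at least 1. Ebf1, not called in the main fit, was called under 4 of the 17 alternatives. Signs turned for genes near 0: Gata3 with arrays centred on their median (0.0014), and, with single arrays left out, Gata3 (-0.051 to 0.011), Cd8a (-0.16 to 0.13), Lyz2 (-0.067 to 0.23) and Il4 (-0.020 to 0.11). The cause was not tested.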
